A study of Mus musculus with 33 samples.

Results

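The RA/CHIR arm between day 7 and day 10 is a step of 3 days in the differentiation of mouse embryonic stem cells, taken while the inducers were held constant. It was read from 6 of the 33 RNA libraries of the series, chosen by their labels alone, which are 3 libraries labelled RA/CHIR-10d and 3 labelled RA/CHIR-7d. RA/CHIR-10d and RA/CHIR-7d cells came from stem cells of strain 129S2/SvPas that had been kept on mitomycin-treated mouse fibroblast feeders with LIF, and both groups then grew on gelatin in DMEM with 15% serum, 10 µM all-trans retinoic acid (atRA) and 5 µM CHIR. CHIR abbreviates a chemical that blocks the kinase GSK3. The cells of both days carry the label ES-derived XEN-like, after the stem cell line of the extraembryonic endoderm (XEN). In the parallel RA arm the cells were given 10 µM atRA without CHIR, and RA-10d and RA-7d (3 libraries each) are set beside the RA/CHIR step where noted. The series also covers days 4 and 16, untreated stem cells (mES), XEN cells and a smooth muscle line (SMC). The name of the stem cell line is not given in the labels, and nothing says that replicates are separate cultures, so p-values measure the spread between these libraries, which may be technical.

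Retinoic acid binds nuclear receptors that switch target genes on, among them the genes of its own degradation. GSK3 marks beta-catenin for destruction, and its inhibition lets beta-catenin enter the nucleus and act with TCF/LEF factors on Wnt target genes. Extraembryonic endoderm is the lineage that lines the yolk sac of the early embryo, and its cells take up nutrients through endocytosis and lysosomes, lay down basement membrane and secrete carrier proteins.

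Values are FPKM, fragments scaled to transcript length and to the mapped fragments of the library, as deposited. The 12960 genes with at least 1 FPKM in at least 3 of the 6 libraries were tested with limma on log2(FPKM + 1). "Rose" and "fell" stand for an adjusted p under 0.05 in that test, and "called" adds that the log2 fold change reached 1 or more in either direction. Of these genes, 11769 reached 1 FPKM in all 6 libraries and 414 in exactly 3. At the edge of the filter, Vmo1 (1.47, 0.929 and 1 FPKM in RA/CHIR-10d, 0.521, 1.3 and 0.256 in RA/CHIR-7d) was just inside, and Col26a1 (0.534, 1 and 1.5 in RA/CHIR-10d, 0.444, 1.98 and 0.683 in RA/CHIR-7d) was just outside. A library held 12826 to 12932 genes at 1 FPKM or more. The fragment counts behind the values are unknown, because the deposited table gives none. Across tested genes the Pearson correlation of log2 values was 0.9834 to 0.988 between libraries of the same day and 0.971 to 0.9747 between days. A single short transcript, mt-Ts1, stood at 95422.3 FPKM in RA/CHIR-10d replicate 1 and at 0 in the other 5 libraries. Without it the FPKM sums were 647424 to 691234.

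The label XEN-like was checked against a list of 17 endoderm markers, all of which were at 1 FPKM or more in all 6 libraries. Their summed level was 6381 to 6424 FPKM in RA/CHIR-10d and 5314 to 5440 in RA/CHIR-7d, against 8492 to 8763 in XEN cells, 8395 to 8582 in SMC and 615 to 811 in mES. The sum is therefore not specific to endoderm, since the matrix gene Sparc alone was at 7107 ± 110.4 FPKM in SMC. The endoderm regulator Sox17 was at 333 ± 2.34 FPKM in RA/CHIR-10d and 304 ± 22.6 in RA/CHIR-7d (SD, n = 3 each, as for all such values), and at 189 ± 16.7 in XEN cells. Of 8 markers of undifferentiated stem cells, 5 were still at 1 FPKM or more in all 6 libraries, while Dppa3 was at 0 in each and at 0.283 to 0.987 FPKM in mES, too low there for its absence to be read. Their sum was 391 to 406 FPKM in RA/CHIR-10d, 502 to 528 in RA/CHIR-7d, 1.47 to 1.85 in XEN cells and 7055 to 8250.0 in mES. Pou5f1 alone (GRCm38, chromosome 17, 35506018 to 35510772), which encodes the pluripotency factor Oct4, had 189.7, 198 and 197 FPKM in RA/CHIR-10d and 283, 290.5 and 280.0 in RA/CHIR-7d. On both days the cultures thus carried endoderm and stem cell markers at once, where XEN cells had almost none of the stem cell markers. In bulk RNA, fewer cells of a type and less RNA per cell cannot be told apart, here and in every result below. Smooth muscle markers summed to 96.7 to 106 FPKM in RA/CHIR-10d and 153 to 165 in RA/CHIR-7d, with 4 of 6 at 1 FPKM or more in all libraries. Fibroblast markers, which feeder cells would also carry, summed to 24.8 to 26.3 FPKM in RA/CHIR-10d and 13.7 to 17.7 in RA/CHIR-7d, with 4 of 7 at that level. In SMC these sums were 18550.0 to 19210.0 and 10620.0 to 10960.0. The part of these marker shifts in the results was not tested.

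The step was small in size and broad in reach. Of the 12960 genes tested, 167 were called (1.29%), 100 of them higher (0.772%) and 67 lower (0.517%) in RA/CHIR-10d than in RA/CHIR-7d. Without a minimum size, 3261 genes passed (25.2%), of which 1702 rose (13.1%) and 1559 fell (12.0%). The shares 13.1% and 12.0% are the background for the counts of listed genes that rose or fell in this step. The 3 libraries of each day did not overlap in 5607 genes (43.3%), 2916 of them higher (22.5%) and 2691 lower (20.8%) in RA/CHIR-10d. The log2 change was at most 0.705 in size for 95% of genes, with a median of 0.0069. Among the called genes, 149 encode proteins, 8 are pseudogenes and 10 are of other kinds. The filter let in 103 genes through the RA/CHIR-10d libraries only, of which 21 were called (20.4%), and 77 through the RA/CHIR-7d libraries only, of which 23 were called (29.9%). These genes had to differ to be tested, so their calls are not read as results. Of the other 12780 genes 123 were called (0.962%).

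**Figure D1:**
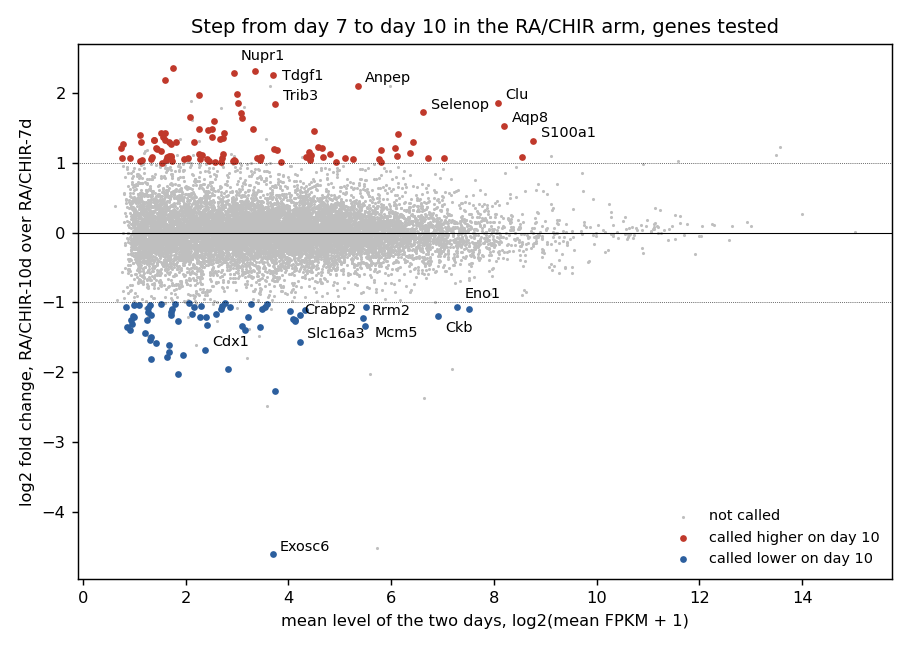
Each point is a tested gene, placed by its mean level over RA/CHIR-10d and RA/CHIR-7d (horizontal axis, log2 of mean FPKM + 1) and its log2 fold change of RA/CHIR-10d over RA/CHIR-7d (vertical axis). The 100 genes called higher are red, the 67 called lower are blue, dotted lines mark a change of 1, and most genes lie close to 0.

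Genes of the integrated stress response rose, with the highest median of the gene lists examined. In this pathway, kinases that sense amino acid shortage, heme shortage or misfolded protein slow translation and raise the transcription factor ATF4, which acts on genes of amino acid supply and of cell death. Of 24 listed genes, 22 were tested, and 15 rose (68.2%) and 1 fell, with a median log2 change of 0.66 against 0.007 for all tested genes. Without Aldh1l2, which passed the filter through RA/CHIR-10d only, 14 of 21 rose with a median of 0.61. The called members numbered 5. Nupr1 (chromosome 7, 126623249 to 126630861), a small stress-induced chromatin protein, had 14.7, 17.8 and 15.3 FPKM in RA/CHIR-10d and 1.12, 2.79 and 3.80 in RA/CHIR-7d. Its log2 change of 2.32 ± 0.27 (standard error, adjusted p = 3.73e-07) was the highest among the genes named by rule. Chac1 (chromosome 2, 119351229 to 119354381), an enzyme that degrades glutathione, had 11.3, 12.2 and 11.3 FPKM in RA/CHIR-10d and 1.70, 3.34 and 1.79 in RA/CHIR-7d (1.98 ± 0.16, adjusted p = 1.13e-09). Trib3 (chromosome 2, 152337422 to 152344032), a pseudokinase induced by ATF4, had 18.5, 21.4 and 20.1 FPKM in RA/CHIR-10d and 5.25, 4.43 and 4.84 in RA/CHIR-7d (1.85 ± 0.17, adjusted p = 7.61e-09). All 3 RA/CHIR-10d libraries lay more than 3-fold above every RA/CHIR-7d library for both genes.

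The promoters of the most changed stress gene and of Chac1 are shown because each holds a match to the composite ATF4 site within the 250 bases before the RefSeq start (GRCm38.p6). The sequences run 5′ to 3′ on the strand of the gene, with the match in capitals, chr2:119350992-119351241 on the plus strand for Chac1 and chr7:126625471-126625720 on the minus strand for Nupr1.
Chac1: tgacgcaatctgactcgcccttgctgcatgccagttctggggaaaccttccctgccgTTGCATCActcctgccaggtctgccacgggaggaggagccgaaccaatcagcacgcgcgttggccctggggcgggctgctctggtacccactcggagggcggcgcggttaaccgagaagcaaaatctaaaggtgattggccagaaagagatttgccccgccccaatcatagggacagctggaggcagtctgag
Nupr1: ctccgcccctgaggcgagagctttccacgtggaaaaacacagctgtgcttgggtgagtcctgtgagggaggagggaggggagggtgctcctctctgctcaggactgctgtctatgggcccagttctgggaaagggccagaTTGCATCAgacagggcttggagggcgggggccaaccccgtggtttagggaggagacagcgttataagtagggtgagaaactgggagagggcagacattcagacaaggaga
The motif searched was TGATGNAA on both strands, and in both genes the match lay on the strand opposite to the gene, its first base 193 bases before the start in Chac1 and 110 bases before it in Nupr1. A match was present in 6 of the 19 listed genes with a promoter in the RefSeq table (31.6%), Asns, Atf3, Chac1, Nupr1, Pck2 and Vldlr. The share was 2.2% of 9486 tested genes and 3.9% of all 27018 promoters. Of these 6 genes, Atf3 did not pass the test and Asns fell. Trib3, Ddit3 and Mthfd2 were not among the genes with a match, and listed genes without a promoter in the RefSeq table were not searched. A match is a description of the letters and not a bound site. The Nupr1 window lies within the gene span given above, which comes from another annotation (GENCODE) with a start further upstream.

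The other stress genes spread over several arms of the pathway. Mthfd2, a mitochondrial enzyme of folate metabolism, had 34.2, 30.4 and 33.2 FPKM in RA/CHIR-10d and 14.2, 13.8 and 12.2 in RA/CHIR-7d (1.22 ± 0.12, adjusted p = 4.26e-08). Ddit3 (CHOP), a transcription factor of the late response, had 73.5, 82.5 and 75.0 FPKM in RA/CHIR-10d and 34.2, 35.2 and 30.4 in RA/CHIR-7d (1.19 ± 0.14, adjusted p = 7.12e-07). Atf4 itself had 157, 158 and 159.9 FPKM in RA/CHIR-10d and 104, 105 and 108 in RA/CHIR-7d (0.58 ± 0.05, adjusted p = 1.24e-09), a rise in RNA that is below the size of a call. The days did not overlap for any of these 3 genes. Amino acid carriers rose as well, with Slc7a5 at 39.1 ± 1.23 FPKM in RA/CHIR-10d and 20.7 ± 0.826 in RA/CHIR-7d (0.89 ± 0.10) and its partner chain Slc3a2 at 190.4 ± 6.75 and 124 ± 3.57 (0.61 ± 0.06). Slc7a3, a carrier of cationic amino acids outside this list, was called at 1.02 ± 0.25, a call that fell short of the size without RA/CHIR-7d replicate 1, RA/CHIR-7d replicate 2 or RA/CHIR-10d replicate 3. Asns, the asparagine synthetase and a textbook ATF4 target, went the other way, at 203, 209 and 207 FPKM in RA/CHIR-10d and 293, 296 and 295 in RA/CHIR-7d (-0.51 ± 0.09, adjusted p = 7.39e-05). Its days did not overlap. The serine synthesis genes Psat1 (0.09 ± 0.09, adjusted p = 0.472) and Phgdh (0.19 ± 0.09, adjusted p = 0.115) did not pass the test. Of 18 tested chaperone and folding genes of the endoplasmic reticulum, which answer another branch of the stress pathways, 4 rose and 2 fell with a median of 0.015, Herpud1 being highest at 0.90 ± 0.09.

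**Figure D2:**
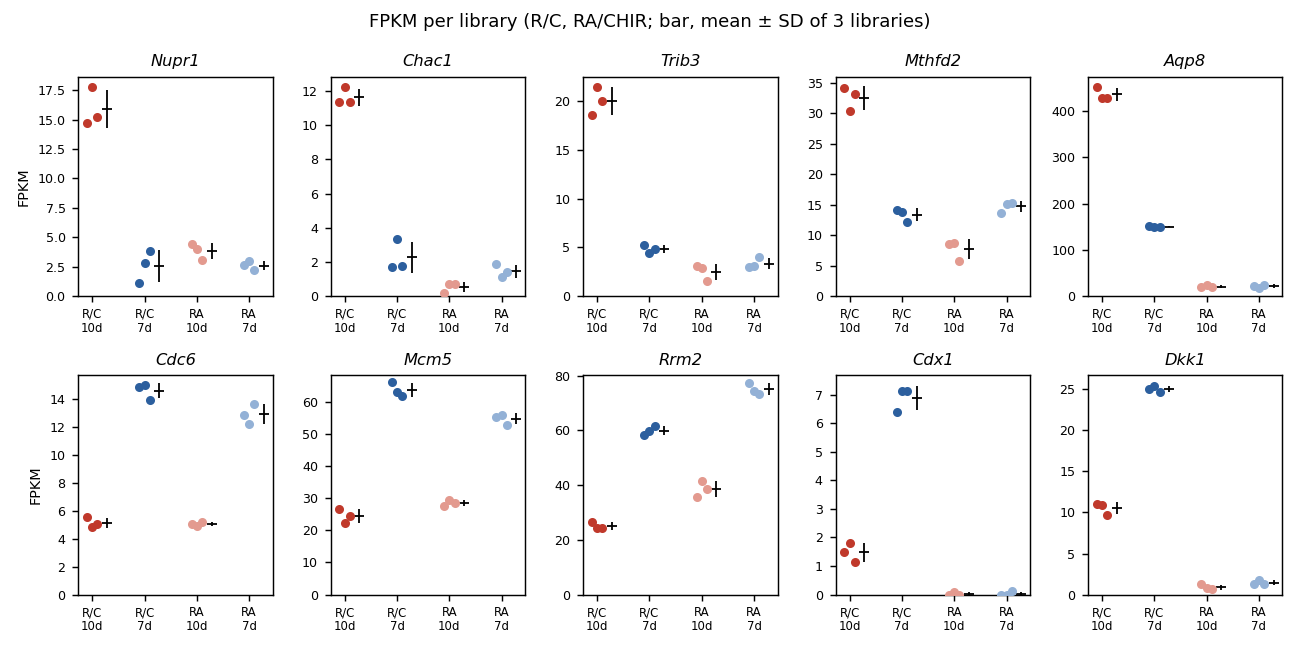
FPKM of 10 genes in each library, with RA/CHIR-10d (red) left of RA/CHIR-7d (blue), and RA-10d (pale red) left of RA-7d (pale blue). Points are libraries and bars are mean ± SD of 3 libraries. The stress genes of the upper row and Aqp8 have their highest values in RA/CHIR-10d, Cdc6, Mcm5 and Rrm2 are lower on day 10 in both arms, and Cdx1 and Dkk1 are low in the RA arm.

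Genes of DNA replication fell together, with the lowest median of the lists. All 29 listed genes were tested and all 29 fell, with a median log2 change of -0.69 and a range of -1.35 to -0.27, where 12.0% of all tested genes fell. The called members were Cdc6, Mcm5 and Rrm2. Cdc6 (chromosome 11, 98907801 to 98923940), which loads the replicative helicase onto origins, had 5.53, 4.82 and 5.07 FPKM in RA/CHIR-10d and 14.8, 15.0 and 13.9 in RA/CHIR-7d (-1.35 ± 0.10, adjusted p = 1.78e-10). Mcm5 (chromosome 8, 75109569 to 75128439), a subunit of that helicase, had 26.7, 22.4 and 24.6 FPKM in RA/CHIR-10d and 66.0, 63.0 and 62.0 in RA/CHIR-7d (-1.34 ± 0.08, adjusted p = 7.63e-12). Rrm2 (chromosome 12, 24708241 to 24714146), the regulated subunit of ribonucleotide reductase, had 26.6, 24.5 and 24.2 FPKM in RA/CHIR-10d and 58.3, 59.9 and 61.5 in RA/CHIR-7d (-1.22 ± 0.06, adjusted p = 1.32e-14). Every RA/CHIR-10d library lay below every RA/CHIR-7d library for all 29 genes, as it did for 20.8% of all tested genes. The sum of the list was 579 to 599 FPKM in RA/CHIR-10d and 989 to 1016 in RA/CHIR-7d.

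The promoters of Cdc6 and Mcm5 are shown because they hold the letters of an E2F site, the motif of the factors that drive S-phase genes. The windows are chr11:98907901-98908150 for Cdc6 and chr8:75109259-75109508 for Mcm5 (GRCm38.p6, RefSeq, both on the plus strand), with matches in capitals. The Cdc6 window lies within the gene span given above, since the GENCODE start of that span is further upstream than the RefSeq start.
Cdc6: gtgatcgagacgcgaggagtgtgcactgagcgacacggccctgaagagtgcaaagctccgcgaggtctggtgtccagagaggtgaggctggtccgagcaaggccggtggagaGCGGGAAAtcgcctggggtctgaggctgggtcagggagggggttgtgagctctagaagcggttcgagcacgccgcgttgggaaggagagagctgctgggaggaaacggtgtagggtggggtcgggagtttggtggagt
Mcm5: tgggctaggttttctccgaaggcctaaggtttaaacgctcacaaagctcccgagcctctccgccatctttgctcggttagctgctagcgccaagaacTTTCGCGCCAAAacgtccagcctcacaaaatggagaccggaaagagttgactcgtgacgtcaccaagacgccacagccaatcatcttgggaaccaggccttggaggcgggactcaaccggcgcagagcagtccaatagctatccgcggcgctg
The motif searched was TTTNNCGC on both strands. Its single match in Cdc6 began 138 bases before the start. The capitals in Mcm5 cover a pair of overlapping matches on opposite strands that began 153 and 149 bases before it. Of 22 listed replication genes with a promoter, 7 held a match (31.8%), Cdc6, Gins3, Mcm5, Mcm6, Mcm7, Orc1 and Pola1, against 8.5% of tested genes and 4.9% of all promoters. Rrm2 was not among the genes with a match, and listed genes without a promoter were not searched. All 7 of these genes are among those that fell, as are the other members of the list.

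Other proliferation genes fell as well. Tk1, the thymidine salvage kinase, was at 9.26 ± 0.837 FPKM in RA/CHIR-10d and 23.6 ± 1.05 in RA/CHIR-7d (-1.26 ± 0.13), and Exo1, a nuclease of DNA repair, at 3.95 ± 1.28 and 11.8 ± 2.32 (-1.39 ± 0.26). Of 22 mitosis genes, 19 fell and none rose, none was called, and the median of -0.46 was smaller in size than that of the replication list. Among them the proliferation marker Mki67 had 4.96, 4.82 and 4.97 FPKM in RA/CHIR-10d and 6.87, 7.93 and 6.75 in RA/CHIR-7d (-0.46 ± 0.06, adjusted p = 4.25e-06), and the mitotic kinase Cdk1 had 88.1, 88.8 and 84.2 in RA/CHIR-10d and 122, 127 and 127 in RA/CHIR-7d (-0.52 ± 0.10, adjusted p = 0.000378). The days did not overlap for either gene. The letters TTTGAA of the cell cycle homology region, searched on both strands, were in 8 of 18 mitosis promoters (44.4%), against 12.3% of tested genes and 18.3% of all promoters. The cell cycle inhibitor Cdkn1a (p21) stood at 245 ± 5.40 FPKM in RA/CHIR-10d and 219.6 ± 4.68 in RA/CHIR-7d and did not pass the test (0.15 ± 0.09, adjusted p = 0.225). Of 21 genes of cell cycle inhibition and p53 response, 5 rose and 1 fell with a median of -0.005, close to that of all genes.

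**Figure D3:**
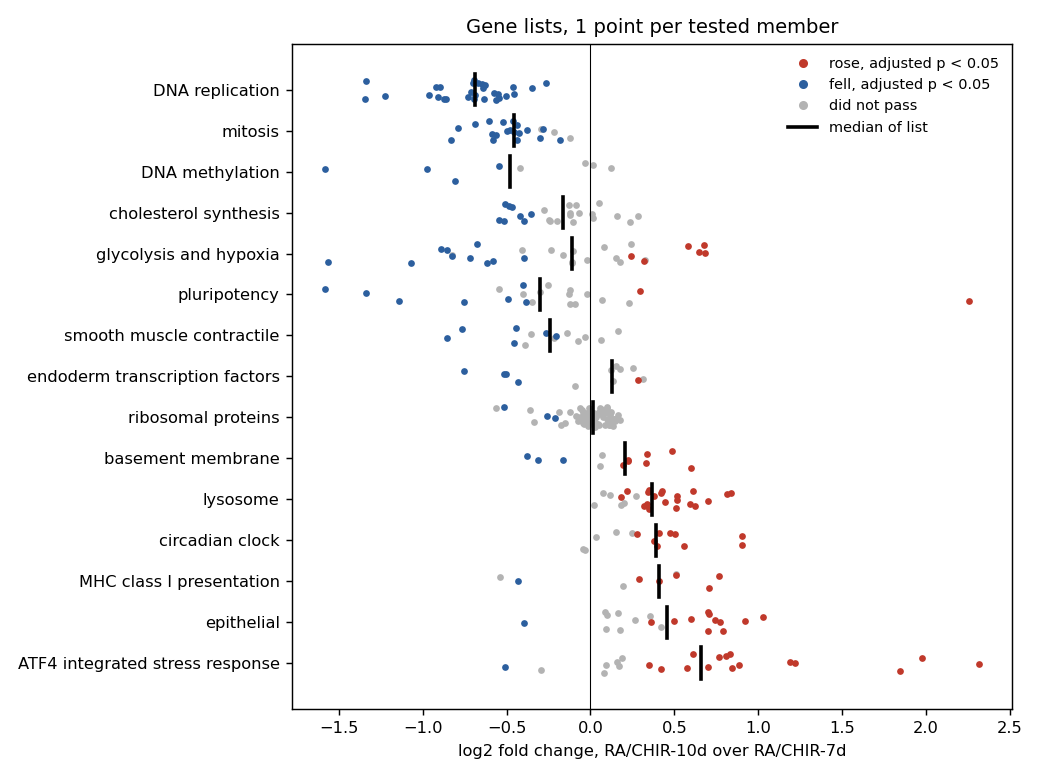
Log2 fold changes of RA/CHIR-10d over RA/CHIR-7d for the tested members of 15 gene lists, 1 point per gene. Red points rose and blue points fell at an adjusted p under 0.05, grey points did not pass, and black bars are list medians, which run from -0.69 for DNA replication to 0.66 for the ATF4 integrated stress response.

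Genes of DNA methylation fell in part. Of 8 tested, 4 fell and none rose, with a median of -0.48, or 3 of 7 with a median of -0.42 without Dnmt3l. Uhrf1, which brings the maintenance enzyme to replicated DNA, was at 15.0 ± 0.426 FPKM in RA/CHIR-10d and 30.4 ± 2.04 in RA/CHIR-7d (-0.97 ± 0.07), and the maintenance enzyme Dnmt1 at 11.3 ± 1.04 and 20.6 ± 1.53 (-0.81 ± 0.08). Dnmt3l, the catalytically inactive partner of the de novo enzymes, had 0.262, 0.456 and 0.296 FPKM in RA/CHIR-10d and 2.65, 2.79 and 3.63 in RA/CHIR-7d. Its day 10 libraries were all below 0.5 FPKM, so it passed the filter through RA/CHIR-7d only and nothing is read from its test. Dnmt3b fell by less (-0.55 ± 0.15).

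CHIR stayed in the medium over the step, and Wnt target genes passed about as often as other genes did. Of 22 tested targets, 2 rose (9.09%) and 4 fell (18.2%), beside 13.1% and 12.0% of all tested genes, with a median of -0.14. Cdx1, a caudal homeobox gene, had 1.48, 1.79 and 1.15 FPKM in RA/CHIR-10d and 6.40, 7.12 and 7.12 in RA/CHIR-7d (-1.68 ± 0.13, adjusted p = 7.96e-10). Dkk1 (chromosome 19, 30545863 to 30549665), a secreted Wnt inhibitor, had 11.04, 10.9 and 9.67 FPKM in RA/CHIR-10d and 25.0, 25.4 and 24.6 in RA/CHIR-7d (-1.18 ± 0.16, adjusted p = 4.81e-06). Cdx1 and Dkk1 were named by a rule that required days without overlap. The classical feedback targets did not pass the test. Axin2 had 49.6, 47.8 and 46.5 FPKM in RA/CHIR-10d and 52.1, 52.6 and 49.7 in RA/CHIR-7d (-0.10 ± 0.14, adjusted p = 0.649), and Notum, a lipase that inactivates Wnt proteins, had 106, 102 and 100.2 in RA/CHIR-10d and 126, 116 and 114 in RA/CHIR-7d (-0.20 ± 0.15, adjusted p = 0.376). Lef1 libraries overlapped between the days (-0.26 ± 0.20, adjusted p = 0.366). Apcdd1, another Wnt inhibitor, rose (0.69 ± 0.12), as did Nkd2 (0.64 ± 0.14), and the cyclin gene Ccnd1 fell (-0.47 ± 0.10). Among 27 tested ligands, receptors and secreted inhibitors of the pathway, 6 rose and 4 fell, 1 of the 6 being Sfrp4, which passed the filter through RA/CHIR-10d only. The receptor gene Fzd10 was called lower (-1.02 ± 0.12), though it was just under the threshold of size without RA/CHIR-7d replicate 1, and the ligand gene Wnt11 (0.77 ± 0.14) rose. Fgfbp3, a carrier of FGF proteins, was called lower at 30.7, 27.9 and 27.4 FPKM in RA/CHIR-10d and 58.5, 62.4 and 62.1 in RA/CHIR-7d (-1.07 ± 0.18).

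Retinoid genes passed in both directions. Of 18 tested, 3 rose (16.7%) and 5 fell (27.8%), beside 13.1% and 12.0% of all tested genes, with a median of -0.14. Crabp2 (chromosome 3, 87948666 to 87953376), which carries retinoic acid to its nuclear receptors, had 8.68, 9.39 and 9.97 FPKM in RA/CHIR-10d and 20.9, 27.5 and 22.7 in RA/CHIR-7d (-1.25 ± 0.13, adjusted p = 4.88e-08). Cyp26a1 (chromosome 19, 37697798 to 37701536), the enzyme that degrades retinoic acid, had 1398, 1376 and 1353 FPKM in RA/CHIR-10d and 1010.0, 1036 and 1051 in RA/CHIR-7d (0.41 ± 0.12, adjusted p = 0.012). So the carrier was lower and the degrading enzyme higher in every RA/CHIR-10d library, which for the carrier was a condition of its naming. The related enzyme Cyp26b1 rose (0.34 ± 0.10), while Stra8 (-0.98 ± 0.19), the synthesis enzyme Aldh1a1 (-0.75 ± 0.13) and the retinol receptor Stra6 (-0.49 ± 0.11) fell. The receptor gene Rarb did not pass the test, at 13.2 ± 0.399 FPKM in RA/CHIR-10d and 17.6 ± 2.19 in RA/CHIR-7d (-0.38 ± 0.19, adjusted p = 0.139). Of 31 tested Hox genes, which retinoic acid and Wnt signals open in the embryo, none rose and 5 fell, led by Hoxd4 (-0.89 ± 0.17). The share of Hox genes that fell, 16.1%, lies near the 12.0% of all tested genes.

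A few endoderm regulators and several endoderm products changed. Of 12 tested endoderm transcription factors, 1 rose (8.33%) and 4 fell (33.3%), beside 13.1% and 12.0% of all tested genes. Gata4 was at 149 ± 6.13 FPKM in RA/CHIR-10d and 122 ± 1.71 in RA/CHIR-7d (0.29 ± 0.10, adjusted p = 0.0372), and Gata6 at 30.9 ± 0.918 and 42.2 ± 2.15 (-0.43 ± 0.08, adjusted p = 0.000357). Sox7 fell (-0.75 ± 0.12, adjusted p = 3.48e-05), and Sox17 (0.14 ± 0.14, adjusted p = 0.544) and Foxa2 (0.12 ± 0.08, adjusted p = 0.297) did not pass. Aqp8 (chromosome 7, 123462291 to 123468004), a water channel, had 452, 428 and 429 FPKM in RA/CHIR-10d and 151, 150.4 and 149.7 in RA/CHIR-7d (1.53 ± 0.16, adjusted p = 6.78e-08). It was the single called member of 16 primitive endoderm surface and secreted genes, of which 6 rose and 4 fell. The endocytic receptor gene Cubn (-0.88 ± 0.13) and its partner Amn (-0.68 ± 0.20) were among those that fell. In the visceral endoderm list, 13 of 23 genes were tested, and 5 rose and 3 fell, or 3 and 2 of 10 without Apom, Fgb and Soat2, which passed the filter through libraries of 1 day only. Among these the fibrinogen chain gene Fgb was at 1.19, 1.30 and 1.37 FPKM in RA/CHIR-10d and 0.0524, 0.127 and 0.0972 in RA/CHIR-7d, and nothing is read from its test. The retinol carrier Rbp4 (0.94 ± 0.16) and apolipoprotein gene Apoe (0.60 ± 0.09) rose, and Ttr, the thyroxine carrier, did not pass (0.32 ± 0.17, adjusted p = 0.167).

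Basement membrane genes, abundant on both days, shifted little. Of 12, 7 rose (58.3%) and 3 fell (25.0%), beside 13.1% and 12.0% of all tested genes. None was called, and the median was 0.21. Col4a1 was at 1336 ± 26.9 FPKM in RA/CHIR-10d and 1142 ± 37.2 in RA/CHIR-7d (0.23 ± 0.07, adjusted p = 0.0185). The laminin chain gene Lama1 had 158, 156 and 166 FPKM in RA/CHIR-10d and 160.4, 152 and 146 in RA/CHIR-7d, with overlapping days (0.07 ± 0.05, adjusted p = 0.398). Lama5 rose the most of the list (0.60 ± 0.18), and the perlecan gene Hspg2 fell (-0.38 ± 0.08). Of 12 tested parietal endoderm markers, several of which are the same laminin and collagen genes, 6 rose and 1, Snai1, fell (-0.80 ± 0.16).

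Abundant secreted and surface proteins were among the genes called higher. Clu (chromosome 14, 65968483 to 65981547), the secreted chaperone clusterin, had 431, 409 and 429 FPKM in RA/CHIR-10d and 119, 118 and 111 in RA/CHIR-7d (1.86 ± 0.06, adjusted p = 4.78e-17). Selenop, the selenium carrier, had 149, 158 and 145 FPKM in RA/CHIR-10d and 46.8, 43.9 and 44.0 in RA/CHIR-7d (1.72 ± 0.11, adjusted p = 7.63e-12). Anpep (chromosome 7, 79821803 to 79861059), an aminopeptidase of absorptive surfaces, had 69.7, 61.7 and 64.0 FPKM in RA/CHIR-10d and 14.6, 14.9 and 13.6 in RA/CHIR-7d (2.10 ± 0.14, adjusted p = 2.49e-11). The 3 genes were higher by more than 3-fold between means, and the rule that named them required days without overlap. S100a1, a calcium-binding protein, reached 622 ± 10.1 FPKM in RA/CHIR-10d, against 249 ± 8.20 in RA/CHIR-7d (1.32 ± 0.12), and its neighbour S100a13, 43 bp away on chromosome 3, was also called higher. F3, the tissue factor that starts coagulation, was at 508 ± 8.38 and 238 ± 11.8 (1.09 ± 0.08). Ctgf, like F3 a gene of the YAP list, was at 72.7 ± 2.57 FPKM in RA/CHIR-10d and 34.6 ± 2.71 in RA/CHIR-7d (1.05 ± 0.14). Its call fell short of the size without RA/CHIR-7d replicate 3. Of the 10 tested genes of the YAP list 4 rose (40.0%) and 1 fell (10.0%), beside 13.1% and 12.0% of all tested genes. The glutathione peroxidase Gpx2 was at 101 ± 5.56 FPKM in RA/CHIR-10d and 37.5 ± 1.54 in RA/CHIR-7d (1.41 ± 0.16). Of 27 tested glutathione transferases and peroxidases 9 rose (33.3%), Gpx2 among them, and 2 fell (7.41%). Without Gsto2, which passed the filter through libraries of 1 day only, 8 of 26 rose and 2 fell.

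Less abundant genes completed the list of the highest changes. Trim50, which encodes a ubiquitin ligase, had 6.29, 6.56 and 7.16 FPKM in RA/CHIR-10d and 0.74, 0.757 and 1.44 in RA/CHIR-7d (1.97 ± 0.12). Kcnk12, a potassium channel gene, was at 11.6 ± 0.827 FPKM in RA/CHIR-10d and 2.56 ± 0.911 in RA/CHIR-7d (1.85 ± 0.22), and the secreted ribonuclease Rnase1 at 11.9 ± 1.64 and 3.00 ± 1.01 (1.72 ± 0.16). Entpd2, an enzyme that splits extracellular ATP, was at 11.96 ± 0.722 and 3.21 ± 0.738 (1.63 ± 0.16), and the sulfotransferase Chst1 at 13.7 ± 0.987 and 4.26 ± 0.0625 (1.48 ± 0.18). The rule that named these 5 genes required days without overlap, so their separation is not a result. Gkn3, a gastrokine of the stomach lining, was at 5.42 ± 0.2 FPKM in RA/CHIR-10d and 1.05 ± 0.265 in RA/CHIR-7d (1.65 ± 0.22). It was the called member among 6 tested of 20 gut epithelium genes, of which 3 rose and none fell.

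The lysosome list rose without large members. Of 26 genes, all tested, 20 rose (76.9%), none fell and none was called, with a median of 0.37. Neu1, the lysosomal sialidase, had 148, 146 and 149 FPKM in RA/CHIR-10d and 84.2, 80.1 and 82.6 in RA/CHIR-7d (0.84 ± 0.07, adjusted p = 8.96e-10). Lgmn, the protease legumain, had 587, 563 and 569 FPKM in RA/CHIR-10d and 354, 352 and 349.7 in RA/CHIR-7d (0.70 ± 0.07, adjusted p = 4.83e-08). The days did not overlap in either gene. Across the list, 24 of the 26 genes lay higher in every RA/CHIR-10d library, beside 22.5% of all tested genes. The list summed to 8262 to 8459 FPKM in RA/CHIR-10d, 6422 to 6482 in RA/CHIR-7d and 7549 to 8483 in XEN cells. The core letters of the CLEAR element, TCACGTG, which factors of lysosome biogenesis bind, were in 7 of 20 lysosome promoters (35.0%), Ctsa, Ctsd, Gla, Glb1, Lamp1, Lgmn and Mcoln1, against 6.0% of tested genes and 3.6% of all promoters, both strands searched. These letters contain the E-box CACGTG, which was in 8 of the 20.

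Epithelial junction genes rose as well. Of 20 tested, 11 rose (55.0%) and 1 fell (5.0%), beside 13.1% and 12.0% of all tested genes. Of the list 1 was called, the median was 0.46, and with a pseudocount of 0.1 only 7 rose. Ocln, the tight junction protein occludin, had 9.43, 8.66 and 10.2 FPKM in RA/CHIR-10d and 3.70, 4.06 and 4.56 in RA/CHIR-7d (1.03 ± 0.12, adjusted p = 4.2e-07), just past the threshold of size, which it missed without RA/CHIR-7d replicate 1 or RA/CHIR-10d replicate 3. The claudin genes Cldn4 (0.92 ± 0.13) and Cldn3 (0.79 ± 0.18), the splicing regulator Esrp1 (0.74 ± 0.14) and the adhesion gene Epcam (0.70 ± 0.08) also rose. The cadherin gene Cdh1 rose by less (0.36 ± 0.09), and the keratin gene Krt8 fell (-0.40 ± 0.12). Among 13 tested genes of mesenchymal transition, 4 rose and 2 fell. Zeb2, a repressor of epithelial genes, was called higher (1.04 ± 0.25), a call lost without RA/CHIR-10d replicate 1, while Snai1 and Vim (-0.48 ± 0.06) fell.

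Genes of the circadian clock rose in part. Of 14 tested genes, 9 rose (64.3%, beside 13.1% of all tested genes) and none fell. None was called, and the median was 0.39. Dbp, an output gene of the clock, had 40.7, 39.6 and 40.8 FPKM in RA/CHIR-10d and 22.4, 20.8 and 20.2 in RA/CHIR-7d (0.90 ± 0.13, adjusted p = 9.53e-06), and Nr1d1, a repressor within the loop, rose by 0.56 ± 0.14. In the RA arm 7 of the 14 rose and 1 fell, Dbp among those that rose (0.95 ± 0.13). The E-box CACGTG was in 5 of 13 clock promoters (38.5%) and in 10.3% of those of tested genes.

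Pluripotency genes fell in part. Of 28 listed, 21 were tested, and 2 rose and 7 fell, with a median of -0.30, or 2 and 5 of 19 with a median of -0.25 without Dnmt3l and Utf1. Tdgf1 (chromosome 9, 110939603 to 110946158), the Nodal co-receptor Cripto, was the member called higher, at 21.9, 20.1 and 19.5 FPKM in RA/CHIR-10d and 4.23, 3.50 and 2.87 in RA/CHIR-7d (2.25 ± 0.16, adjusted p = 9.38e-11). It has processed copies in the mouse genome among which reads could be split. Its neighbour Lrrc2, 5387 bp away, was called higher too. Sox2 fell to 1.78, 2.92 and 2.48 FPKM in RA/CHIR-10d, against 4.52, 4.15 and 5.37 in RA/CHIR-7d (-0.75 ± 0.12, adjusted p = 4.63e-05). The signalling adaptor gene Tcl1 (-1.34 ± 0.19) and the chromatin gene Utf1 were called lower from few FPKM, Utf1 through RA/CHIR-7d libraries only. Pou5f1 did not pass in the fit over all libraries (-0.54 ± 0.29, adjusted p = 0.183), whose spread takes in mES libraries at 1326 ± 332 FPKM. In a fit of the 6 libraries alone it passed (adjusted p = 9.47e-05), and its day 10 libraries all lay below its day 7 libraries. Nanog was under 1.2 FPKM in all 6 libraries. Esrrb did not pass, at 23.5 ± 0.821 FPKM in RA/CHIR-10d and 25.8 ± 0.727 in RA/CHIR-7d (-0.13 ± 0.09, adjusted p = 0.323). Of 11 genes of the Lin28 axis, which keep embryonic cells immature, 6 fell (54.5%, beside 12.0% of all tested genes) and none rose. Hmga1 (-0.48 ± 0.12), Hmga2 (-0.41 ± 0.09) and Lin28b (-0.38 ± 0.09) were among those that fell.

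Glycolysis genes fell in part. Of 29 tested genes of glycolysis and hypoxia, 6 rose and 10 fell, with a median of -0.11. Slc16a3 (chromosome 11, 120948480 to 120960868), the lactate exporter MCT4, had 7.27, 10.4 and 7.78 FPKM in RA/CHIR-10d and 24.9, 28.2 and 27.2 in RA/CHIR-7d (-1.56 ± 0.21, adjusted p = 3.95e-06). The enolase gene Eno1 had 102, 99.1 and 98.5 FPKM in RA/CHIR-10d and 211, 213 and 207 in RA/CHIR-7d (-1.07 ± 0.10, adjusted p = 6.72e-09), and its near-identical copy Eno1b, with which it may share reads, was called with nearly the same change (-1.10 ± 0.13). The rule that named both genes required days without overlap. Pyruvate kinase Pkm (-0.89 ± 0.09), lactate dehydrogenase Ldha (-0.83 ± 0.13) and the glucose carrier Slc2a1 (-0.72 ± 0.11) fell too. The members that rose were Mxi1 (0.24 ± 0.08), Vegfa (0.32 ± 0.11), Pfkp (0.58 ± 0.20), Pfkfb3 (0.64 ± 0.09), Ero1l (0.68 ± 0.07) and Ndrg1 (0.69 ± 0.16), of which Vegfa encodes a growth factor of blood vessels and Ero1l an oxidase of protein folding. Ckb, the brain-type creatine kinase, was called lower at 73.6, 62.8 and 81.2 FPKM in RA/CHIR-10d and 165, 168 and 166 in RA/CHIR-7d (-1.19 ± 0.12). Of 24 cholesterol synthesis genes 8 fell and none rose, with Idi1 lowest (-0.55 ± 0.14). Of 63 nuclear genes of oxidative phosphorylation 2 rose and 6 fell, and of 79 ribosomal protein genes none rose and 3 fell, both under the background shares of 13.1% and 12.0%.

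Antigen presentation and interferon genes were partly higher. Of 9 tested MHC class I genes, 5 rose and 1 fell, or 4 and 1 of 8 without H2-T23, which passed the filter through 1 day only. H2-K1 was at 64.4 ± 0.458 FPKM in RA/CHIR-10d and 37.5 ± 2.84 in RA/CHIR-7d (0.77 ± 0.07), B2m, the shared light chain, rose by 0.41 ± 0.10, and the peptide pump gene Tap1 fell (-0.43 ± 0.13). Reads of class I genes can be split among near copies. Of 15 interferon response genes, 6 rose and 1 fell, which was Cxcl10, tested through 1 day only. Bst2 (tetherin) had 111, 119.7 and 106 FPKM in RA/CHIR-10d and 52.8, 53.4 and 45.5 in RA/CHIR-7d (1.14 ± 0.12, adjusted p = 1.09e-07), and Ifi27 was called at 1.08 ± 0.15, a call that fell short of the size without RA/CHIR-7d replicate 1 or RA/CHIR-10d replicate 2.

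Some markers of other cell types passed the test, beside 13.1% of all tested genes that rose and 12.0% that fell. Of 16 tested fibroblast matrix genes 4 rose (25.0%) and none fell. Without Dcn and Fbn1, which passed the filter through libraries of 1 day only, 3 of 14 rose. Ogn (chromosome 13, 49608046 to 49624501), a matrix proteoglycan, had 11.7, 12.3 and 11.03 FPKM in RA/CHIR-10d and 1.45, 1.55 and 1.80 in RA/CHIR-7d (2.29 ± 0.09, adjusted p = 4e-16). Dcn (decorin) had 3.73, 3.66 and 3.21 in RA/CHIR-10d and 0.943, 0.913 and 0.686 in RA/CHIR-7d, and as it passed the filter through RA/CHIR-10d only nothing is read from its test. Thy1 was called (1.42 ± 0.22), while Col1a1, a main fibroblast collagen, did not pass (0.11 ± 0.14, adjusted p = 0.63). Of 14 smooth muscle genes 6 fell (42.9%) and none rose, with Tagln at 56.6 ± 0.905 FPKM in RA/CHIR-10d and 96.9 ± 1.48 in RA/CHIR-7d (-0.77 ± 0.09). Of 7 tested of 18 neural genes, 3 fell (42.9%), or 2 of 6 without Stmn2, which passed the filter through RA/CHIR-7d only. Of the mesothelium (3 tested of 11), endothelium and blood (2 of 20), trophoblast (6 of 15) and cardiac muscle (5 of 19) lists, no member passed. In the Hedgehog list 6 of 11 fell, led by the co-receptor gene Gas1 at 11.3, 12.1 and 11.8 FPKM in RA/CHIR-10d and 24.9, 25.8 and 28.8 in RA/CHIR-7d (-1.11 ± 0.11). Of 20 imprinted genes 4 rose and 8 fell, with Nnat called (-1.21 ± 0.16).

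The remaining genes of the lowest changes had mixed roles. Mymx, a micropeptide of muscle cell fusion, was at 2.12 ± 0.743 FPKM in RA/CHIR-10d and 6.63 ± 0.0533 in RA/CHIR-7d (-1.32 ± 0.19), and Metrn, a secreted factor of glia and axons, at 9.09 ± 0.771 and 22.9 ± 3.16 (-1.24 ± 0.20). Exosc6, a subunit of the RNA exosome, was listed below 0.0001 FPKM in all 3 RA/CHIR-10d libraries, against 17.4, 24.3 and 30.1 in RA/CHIR-7d. It lies within the span of Aars on the same strand, which was at 72.7, 68.0 and 72.3 FPKM in RA/CHIR-10d and 49.3, 46.3 and 46.8 in RA/CHIR-7d. The counting is not stated to separate overlapping genes, the part of this overlap was not tested, and no fold is given for Exosc6.

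The step was then set against the same days in the RA arm, which shares no library with it. The interaction, the RA/CHIR step minus the RA step, was called for 396 genes (3.06%), 238 of them higher (1.84%) and 158 lower (1.22%) in the RA/CHIR arm. Without a minimum size it was higher for 1318 genes (10.2%) and lower for 913 (7.04%). In the RA arm itself 219 of the same 12960 genes were called (1.69%), 112 higher (0.864%) and 107 lower (0.826%), and at any size 29.2% passed, of which 13.0% rose and 16.1% fell. The genes were filtered on the RA/CHIR libraries, so genes that only the RA arm expresses are not covered. With a filter over all 33 libraries the RA arm had 329 calls, 191 of them higher, and 244 interactions were called lower. Genes called in both arms numbered 20, which is 12% of the RA/CHIR calls and 9.13% of the RA calls, and 18 of them moved in the same direction. Across genes the log2 changes of the steps had a Pearson correlation of 0.23, given as a description. Of the 100 genes called higher in the RA/CHIR arm, 53 also had a higher interaction, and of the 67 called lower, 23 had a lower one. The RA/CHIR step is itself a term of the interaction, so overlap in the same direction is partly built in. These counts are not read as a result about the arms, and they include calls of genes that passed the filter through 1 day only.

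**Figure D4:**
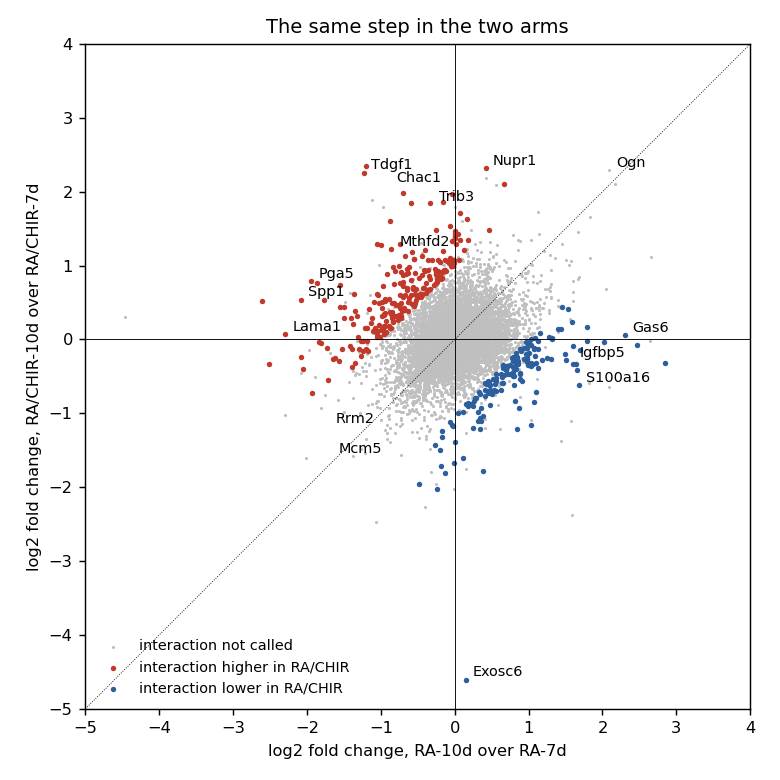
Log2 fold change of RA/CHIR-10d over RA/CHIR-7d (vertical axis) against that of RA-10d over RA-7d (horizontal axis) for the tested genes. Red points (238) have a higher and blue points (158) a lower interaction in the RA/CHIR arm, grey points are not called, and the dotted line marks equal change.

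The interaction was called for many stress genes and for no replication gene. In the RA arm 2 of the 22 tested ATF4 genes rose and 13 fell, with a median of -0.37, and the interaction was higher for 16 and lower for none, 10 of them as calls. Chac1 was at 0.533 ± 0.296 FPKM in RA-10d and 1.47 ± 0.383 in RA-7d, and its interaction was 2.67 ± 0.23 (adjusted p = 2.79e-09). Mthfd2 was at 7.74 ± 1.63 FPKM in RA-10d and 14.7 ± 0.876 in RA-7d (2.09 ± 0.18, adjusted p = 1.81e-09), and Trib3 at 2.49 ± 0.805 and 3.35 ± 0.567 (2.19 ± 0.24, adjusted p = 1.71e-07). Asns fell in both arms, and its interaction did not pass (0.25 ± 0.12, adjusted p = 0.181). Of the 29 replication genes, 26 fell in the RA arm with a median of -0.64, and no interaction was called, though 5 were lower at a smaller size, Mcm5 (-0.43 ± 0.12) and Rrm2 (-0.27 ± 0.08) among them. For Cdc6 the interaction was -0.14 ± 0.14 (adjusted p = 0.557). Of 22 mitosis genes 20 fell in the RA arm, and 6 had a higher interaction, none of them called.

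Basement membrane, Wnt target and lysosome genes also had passing interactions. Of the 12 basement membrane genes, 1 rose and 8 fell in the RA arm, and 8 interactions were higher and 1 lower. Lama1 was at 16.5 ± 1.14 FPKM in RA-10d and 84.9 ± 1.06 in RA-7d, so that its interaction of 2.37 ± 0.08 (adjusted p = 9.8e-18) came from the RA arm, while its RA/CHIR levels overlapped. Col4a1 was at 278 ± 10.0 FPKM in RA-10d and 609.7 ± 3.10 in RA-7d (1.36 ± 0.10). Of the 22 Wnt targets, 9 rose and 2 fell in the RA arm, and 11 interactions were lower and 1 higher, 7 of the lower ones as calls. Axin2 was at 18.3 ± 1.45 FPKM in RA-10d and 8.74 ± 0.604 in RA-7d (-1.08 ± 0.20), and Notum at 14.3 ± 0.651 and 4.42 ± 0.341 (-1.70 ± 0.22). Both remained below their levels in the RA/CHIR arm, where neither passed the test over the step. Of 26 lysosome genes, 6 rose and 10 fell in the RA arm, and 16 interactions were higher and 2 lower. Ogn rose in both arms, to 11.6 ± 0.496 FPKM in RA-10d against 1.98 ± 0.24 in RA-7d, and its interaction did not pass (0.20 ± 0.12, adjusted p = 0.309). Gkn3, Dbp and Bst2 also rose in both arms without a passing interaction.

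The step falls within a course of 4 sampling days, of which the neighbouring steps share libraries with it, so the values are given side by side. Trib3 was at 5.13 ± 0.199, 4.84 ± 0.413, 20.02 ± 1.45 and 7.47 ± 0.83 FPKM on days 4, 7, 10 and 16 of the RA/CHIR arm, which is a peak on day 10. Nupr1 was at 4.75 ± 1.04, 2.57 ± 1.35, 15.9 ± 1.65 and 116 ± 4.80 FPKM on these days, and Clu at 38.8 ± 0.801, 116 ± 4.31, 423 ± 12.1 and 2752 ± 47.4, both with their highest level on day 16. Chac1 was at 1.95 ± 0.339, 2.28 ± 0.92, 11.6 ± 0.512 and 1.30 ± 0.346 FPKM, high on day 10 alone. Cdc6 was at 17.2 ± 1.09, 14.6 ± 0.567, 5.14 ± 0.358 and 17.7 ± 0.388 FPKM, with its lowest level on day 10 and a day 16 level near that of day 4. Mcm5 was at 109.9 ± 4.15, 63.7 ± 2.10, 24.6 ± 2.17 and 47.4 ± 0.417 FPKM, and Crabp2 at 264 ± 6.33, 23.7 ± 3.41, 9.35 ± 0.645 and 4.40 ± 0.9. Crabp2 was thus lower at each later sampling day, while Mcm5 was higher again on day 16, after the inducers had been withdrawn. Ogn, at 0.651 ± 0.0189, 1.60 ± 0.18, 11.7 ± 0.644 and 0.582 ± 0.178 FPKM, stood above 2 FPKM on day 10 alone.

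**Figure D5:**
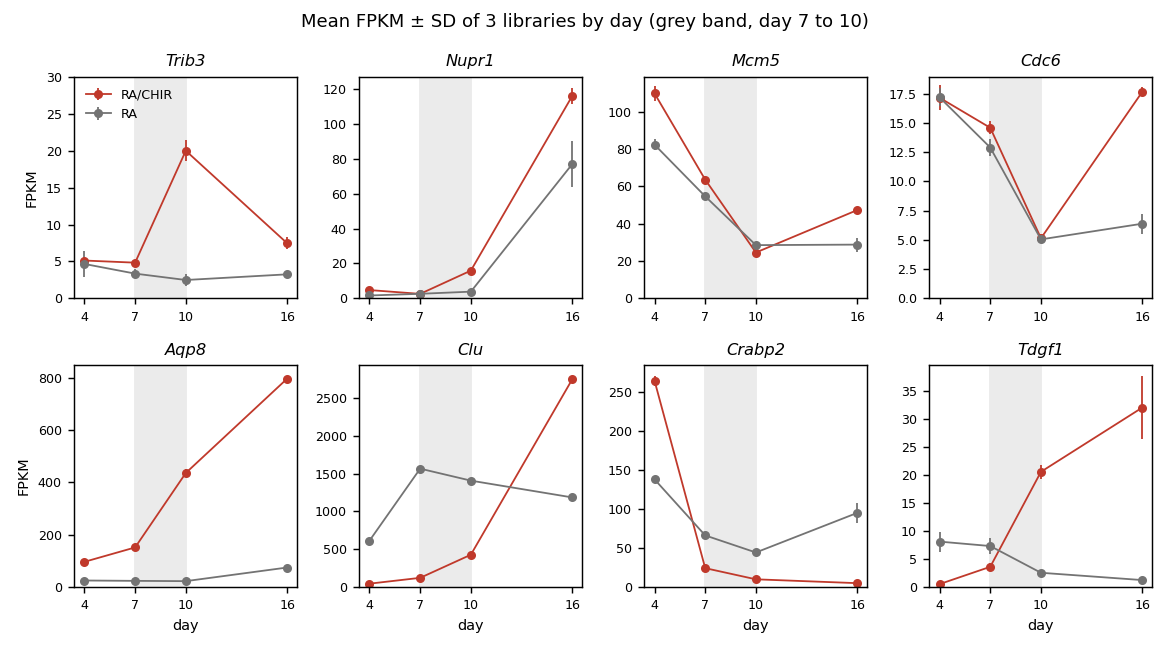
Mean FPKM ± SD of 3 libraries on days 4, 7, 10 and 16 in the RA/CHIR arm (red) and the RA arm (grey) for 8 genes, with the step from day 7 to 10 shaded. Trib3 peaks and Cdc6 is lowest on day 10 of the RA/CHIR arm, and Nupr1, Aqp8, Clu and Tdgf1 go on to higher means on day 16.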

How the data were processed

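The deposited table holds FPKM of 52631 genes in 33 libraries, computed by the authors. Per the submitters' processing notes, Trimmomatic 0.33, HISAT2 2.0.4, Cufflinks and Cuffdiff were used with mouse build GRCm38, without stated parameters. Poly(A) libraries were read as 150 bp pairs to a depth of about 25M, per the labels' protocols. Coordinates and gene types came from GENCODE M21, which matched 52398 identifiers, and 13 symbols that had turned into dates were restored. Promoters came from RefSeq (GRCm38.p6).

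The analysis used log2(FPKM + 1) with no added scaling. Genes with at least 1 FPKM in at least 3 of the 6 libraries entered a linear model of the 11 groups and 33 libraries, fitted by limma 3.58.1 (R 4.3.3) with the prior variance following the mean level (residual degrees of freedom 22, prior degrees of freedom 3.64). Tests were two-sided, and p-values were adjusted by Benjamini-Hochberg over the 12960 genes of each comparison. The comparisons were RA/CHIR-10d minus RA/CHIR-7d, RA-10d minus RA-7d, and the difference of these steps. A gene with high spread in another group, such as mES, has a wider error in this shared fit. The procedure was tested on simulated data. Tables and figures were made with Python 3.11.15, numpy 2.4.6, pandas 2.3.3 and matplotlib 3.10.9.

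The members and gene lists were chosen with earlier results of these data known. Genes were named by a rule: the 15 highest and 15 lowest called genes with a mean of at least 5 FPKM on the higher day and days that do not overlap, the 5 most abundant called genes in each direction, up to 4 called members of each list, a set of identity genes, and the 8 highest and 8 lowest called interactions. Predicted genes, clone names, pseudogenes and shared symbols were passed over. The most abundant called genes also had to have days that do not overlap. Other list members, neighbours and genes at the edge of the filter were chosen after their values were seen. Alternatives covered scaling, pseudocount, filter, libraries in the fit, variance trend, replicate block, fold threshold and leaving out each library.

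Replicate numbers were not used to pair libraries. Genes that overlap or are near copies may share reads, since strand use is not stated. A pseudocount of 1 compresses the changes of low genes.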

Additional observations from a re-analysis of the deposited data

Results flagged for a closer look

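The step differed between the arms by the test of the difference itself for 396 genes. Among the genes named by rule, the interaction of the RA/CHIR step over the RA step was higher for Tdgf1 (3.49), Pga5 (2.73), Chac1 (2.67), Gstm1 (2.63), Spp1 (2.62), Kcnk12 (2.44), Lama1 (2.37) and Calca (2.35), each a log2 difference. Tdgf1, Chac1, Kcnk12 and Calca were called higher in the RA/CHIR arm, while Pga5, Gstm1, Spp1 and Lama1 were called lower in the RA arm. Gstm1, a glutathione transferase, was at 52.97 ± 2.79 FPKM in RA/CHIR-10d and 30.8 ± 1.84 in RA/CHIR-7d, beside 132 ± 8.05 in RA-10d and 484 ± 4.70 in RA-7d. Spp1, the secreted phosphoprotein osteopontin, was at 228 ± 4.90 FPKM in RA/CHIR-10d and 157 ± 2.34 in RA/CHIR-7d, beside 11.01 ± 1.59 in RA-10d and 49.7 ± 1.37 in RA-7d. Pga5, a pepsinogen gene, was at 8.03 ± 1.995 FPKM in RA/CHIR-10d and 4.17 ± 0.807 in RA/CHIR-7d, beside 10.4 ± 1.28 in RA-10d and 42.8 ± 2.09 in RA-7d. Tdgf1 and Calca were the 2 genes called in opposite directions, Tdgf1 at 2.25 ± 0.16 in the RA/CHIR arm and -1.24 ± 0.16 in the RA arm, and Calca at 1.30 ± 0.32 and -1.05 ± 0.32 on the log2 scale.

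The interaction was lower for Igfbp5 (-1.94), Igfbp6 (-2.05), C1s1 (-2.07), Fcor (-2.20), Gas6 (-2.25), S100a16 (-2.30), Tbx3os1 (-2.54) and Exosc6 (-4.75). Gas6, a ligand of receptor kinases, was at 73.2 ± 2.58 FPKM in RA/CHIR-10d and 70.3 ± 3.09 in RA/CHIR-7d, beside 232 ± 7.43 in RA-10d and 46.1 ± 0.0419 in RA-7d. Igfbp5 and Igfbp6, binding proteins of insulin-like growth factors, were at 2.98 ± 0.262 and 1.83 ± 1.14 FPKM in RA/CHIR-10d and at 139 ± 5.66 and 96.3 ± 10.2 in RA-10d. For Tbx3os1, an antisense gene that overlaps Tbx3, the call was lost under 11 alternatives, and its RA-10d level was 31.6 ± 23.3 FPKM. The Fcor call was lost under 3. The Exosc6 value rests on day 10 listings near 0 and is not read as a fold.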

How the results depend on the processing

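No named change reversed under any alternative run. Counts of calls, given for RA/CHIR-10d over RA/CHIR-7d unless stated, moved by over 1.5 times under these settings. Without a minimum fold, 3261 genes passed (1702 higher, 1559 lower), with 2231 in the interaction (1318 higher, 913 lower) and 3782 in the RA arm (1690 higher, 2092 lower). Quantile normalization gave 268 (154 higher, 114 lower). A pseudocount of 0.1 gave 321 (184 higher, 137 lower), 7 in place of 11 epithelial genes that rose, and 420 in the RA arm (195 higher, 225 lower). A mean of at least 5 FPKM left 84 (54 higher, 30 lower). A filter over all 33 libraries gave 329 in the RA arm (191 higher) and 244 lower interactions, and no filter gave 191 higher in the RA arm. For the pseudocount and scaling the cause was not tested, while the filters change which genes are tested.

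Leaving out single libraries gave 168 to 183 calls (103 to 107 higher, 65 to 78 lower), 384 to 404 interactions (232 to 248 higher, 152 to 168 lower) and 232 to 255 in the RA arm (113 to 127 higher, 116 to 128 lower). Of listed genes, 27 to 28 replication, 18 to 19 mitosis, 13 to 14 stress, 18 to 20 lysosome, 7 to 8 clock and 10 to 11 epithelial genes passed.

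The replicate block gave 168 calls, 395 interactions and 220 calls in the RA arm, and changed no named call. Deviations of same-numbered libraries correlated at 0.068, -0.085 and -0.121, and those of differently numbered libraries at -0.059 to 0.147. These values show no sign of pairing by number. They cannot show whether same-numbered libraries share a culture, which the labels leave unstated.

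Of the named calls, Hist1h2ae was lost under 5 alternatives and Pparg, Mmp2 and Slc7a3 under 3 each. Pparg passed the filter through libraries of 1 day only, so nothing is read from its test. The median shift of all genes was 0.0069, -0.0014 with trimmed-mean scaling and -0.0045 with quantile normalization. Among 12 tested housekeeping genes, 4 fell (33.3%, beside 12.0% of all tested genes) and none rose, with a median of -0.196. For 10 of them every RA/CHIR-10d library lay below every RA/CHIR-7d library, beside 20.8% of all tested genes, and Hprt fell most (-0.54 ± 0.08). Small falls in the other lists stand beside these values, and their cause was not tested. Read depth is unknown, so no counting interval can be given for low genes.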

Other observations

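Counts of 4 groups not described above are given beside the 13.1% of all tested genes that rose and the 12.0% that fell. Of 12 tested immediate early genes, 4 rose (33.3%) and none fell, with Ier3 called higher (1.18 ± 0.15) and Zfp36, which destabilises cytokine mRNAs, at 0.70 ± 0.17. In the insulin-like growth factor system 3 of 12 genes rose and 3 fell (25.0% each), Igfbp7 being called higher (1.20 ± 0.09) and Igfbp2 falling (-0.47 ± 0.06). Of 187 tested solute carriers, 43 rose and 18 fell (9.63%). Among them the phosphate carrier Slc20a1 (0.88 ± 0.07) and the carnitine carrier Slc22a5 (0.88 ± 0.13) rose. Of 10 tested germ cell genes 2 rose, the receptor gene Kit (0.73 ± 0.10) and Taf7l (0.90 ± 0.13), and 1 fell, shares of 20.0% and 10.0% that lie near those of all genes.

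Called genes that lie within 50 kb of each other formed 5 pairs, all with both members higher. Beside S100a1 with S100a13 and Tdgf1 with Lrrc2, these were Ramp2 with Wnk4 on chromosome 11 (1021 bp apart), H2-Q7 with H2-Q10 on chromosome 17, and the overlapping genes Tmem176b and Tmem176a on chromosome 6. H2-Q7 and H2-Q10 are near copies and may share reads, and overlapping genes may too.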
